A study of Mus musculus with 8 samples.

Results

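Mitophagy receptors are proteins on mitochondria that mark the organelle for removal by autophagy. The transcripts of 7 genes, receptors and the related kinase gene *Pink1*, were followed in mouse leukemic cells after inhibition of the HIF prolyl hydroxylases (PHDs). The 7 genes, *Bnip3*, *Bnip3l*, *Fundc1*, *Bcl2l13*, *Fkbp8*, *Phb2* and *Pink1*, were chosen by name from the 54838 genes listed in the count tables. Earlier results of these data were known when they were chosen. The paper that reported the data had already named *Bnip3* as raised by IOX5, so its rise here is not an independent finding. RNA-seq had been performed on *iMLL-AF9* cells treated with IOX5, a small molecule that selectively inhibits PHDs, or with DMSO, its solvent, with 4 samples in each group numbered 1 to 4. All samples carry the *iMLL-AF9* allele, in which doxycycline induces the MLL-AF9 fusion oncogene, and all are labelled as bone marrow leukemic stem cells of WT genotype. The series design text instead calls the cells preleukemic. The mice were on a C57BL/6 background. For these samples no source gives the age of the mice, the dose of IOX5, how long it was applied, whether doxycycline was present or what the replicate numbers stand for. P-values therefore describe the spread between these samples, which may be technical.

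BNIP3 and BNIP3L (also called NIX) sit in the outer mitochondrial membrane and bind the LC3 and GABARAP proteins of the growing autophagosome directly. Both genes are known targets of the hypoxia-inducible factors (HIFs), which PHDs mark for destruction when oxygen is present. BNIP3 belongs to the BH3 family and can also promote cell death, and BNIP3L is known for clearing mitochondria from maturing red blood cells. FUNDC1, BCL2L13 and FKBP8 are further receptors of the outer membrane. PHB2 is a prohibitin of the inner membrane that can bind LC3 once the outer membrane is ruptured, and PINK1 is the kinase that accumulates on damaged mitochondria and marks them by phosphorylating ubiquitin.

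In the GRCm38 annotation the *Bnip3* gene (ENSMUSG00000078566) occupies chr7:138890836-138909519 on the minus strand, and *Bnip3l* (ENSMUSG00000022051) occupies chr14:66985239-67008877 on the minus strand. *Fundc1* (ENSMUSG00000025040) lies at chrX:17556564-17572325 on the minus strand and *Bcl2l13* (ENSMUSG00000009112) at chr6:120836212-120892842 on the plus strand. *Fkbp8* (ENSMUSG00000019428) lies at chr8:70527724-70535328 and *Phb2* (ENSMUSG00000004264) at chr6:124712336-124716950, both on the plus strand. *Pink1* (ENSMUSG00000028756) lies at chr4:138313409-138326307 on the minus strand.

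The promoter sequence was available from RefSeq (GRCm38.p6) for 6 of the 7 genes, all but *Bnip3l*, whose promoter was therefore not searched. Each available sequence was read over the 250 bases before the RefSeq start, which can differ from the gene ends given above. Each window was searched on both strands for ACGTG, the core of the element that HIF recognizes, whose reverse complement is CACGT. The windows of 3 genes are shown because *Bnip3* changed most in the comparison that follows, while the estimates for *Phb2* and *Pink1* had opposite signs. Each is written 5′ to 3′ along the strand of the gene, in lower case with every match in capitals.
Bnip3, chr7:138909507-138909756, minus strand: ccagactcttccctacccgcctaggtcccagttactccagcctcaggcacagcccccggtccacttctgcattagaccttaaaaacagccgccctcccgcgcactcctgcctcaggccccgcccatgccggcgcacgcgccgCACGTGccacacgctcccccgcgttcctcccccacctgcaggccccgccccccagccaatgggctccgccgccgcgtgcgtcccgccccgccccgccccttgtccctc
Phb2, chr6:124712039-124712288, plus strand: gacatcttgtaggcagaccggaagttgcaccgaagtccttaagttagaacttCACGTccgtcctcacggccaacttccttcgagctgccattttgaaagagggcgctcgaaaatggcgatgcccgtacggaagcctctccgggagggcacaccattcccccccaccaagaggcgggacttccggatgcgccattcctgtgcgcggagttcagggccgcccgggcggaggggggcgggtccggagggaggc
Pink1, chr4:138326297-138326546, minus strand: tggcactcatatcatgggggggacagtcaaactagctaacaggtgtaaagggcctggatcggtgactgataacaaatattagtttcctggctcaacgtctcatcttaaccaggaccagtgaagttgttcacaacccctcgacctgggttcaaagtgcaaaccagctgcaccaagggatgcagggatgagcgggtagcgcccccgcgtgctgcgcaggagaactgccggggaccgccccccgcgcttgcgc

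The *Bnip3* window held the palindrome CACGTG, in which the matches on the 2 strands overlap, 108 bases before the start. It also held 3 matches to GCGTG, the other common form of the core, and the *Pink1*, *Bcl2l13* and *Fkbp8* windows held 1 each. The *Phb2* window held a single ACGTG match, 198 bases before the start, and the *Fkbp8* window also held 1, at 65 bases. No ACGTG match was present in the windows of *Pink1*, *Bcl2l13* and *Fundc1*. The *Fundc1* window, chrX:17572008-17572257, lies inside the gene span given above, which ends at 17572325. Bases before that gene end were therefore not searched for *Fundc1*. Among 32851 promoter windows of the same length, 16.6% held ACGTG on either strand, 28.2% held GCGTG and 6.02% held CACGTG. The matches describe letters in these windows only.

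All 7 genes passed the filter on low counts, with between 383 and 4233 reads per sample, and 12405 genes were tested in all. Reads assigned to genes numbered 12343770 to 14116054 per sample with DMSO and 11351507 to 12708888 with IOX5. Levels are given as counts per 1000000 reads (CPM), normalized between samples by the TMM method. The list of leukemic progenitor markers also held *Itgam*, a marker of myeloid cells, and *Ptprc*, shared by leukocytes, which are not particular to progenitors. All 9 listed genes were detected in every sample, although *Flt3* did not exceed 4.68 CPM. Their summed level ran from 2118 to 4429 CPM in the DMSO group and from 2425 to 5094 CPM in the IOX5 group. The sum was higher with IOX5 in 4 of 4 pairs of samples with the same number. Its largest part was *Mpo*, from 984 to 3380 CPM with DMSO and from 1141 to 3915 CPM with IOX5. *Mpo*, *Kit*, *Itgam*, *Cd34* and *Flt3* were higher in every pair, and *Hoxa9* was lower in every pair. *Hoxa10*, *Meis1* and *Ptprc* were mixed. A rise in all 4 pairs was present in 21.3% of all genes. In bulk RNA, a change in the number of cells of a type cannot be told apart from a change in RNA per cell.

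*Bnip3* and *Bnip3l* were higher in every IOX5 sample than in any DMSO sample. *Bnip3* rose 1.98-fold and *Bnip3l* rose 1.57-fold, and these were the only members called by edgeR's quasi-likelihood test at a Benjamini-Hochberg adjusted p under 0.05. Over all genes tested, 0.774% were called as higher and 1.25% as lower by the same rule. A higher level in every IOX5 sample than in any DMSO sample was present in 5.98% of all genes, and the opposite in 8.3%. DESeq2 called the same 2 members, among 3.9% of its genes called as higher and 4.9% as lower. The other 5 members were not called: the estimates for *Pink1*, *Fkbp8* and *Fundc1* lay above 0 and those for *Phb2* and *Bcl2l13* below 0.

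**Figure D1:**
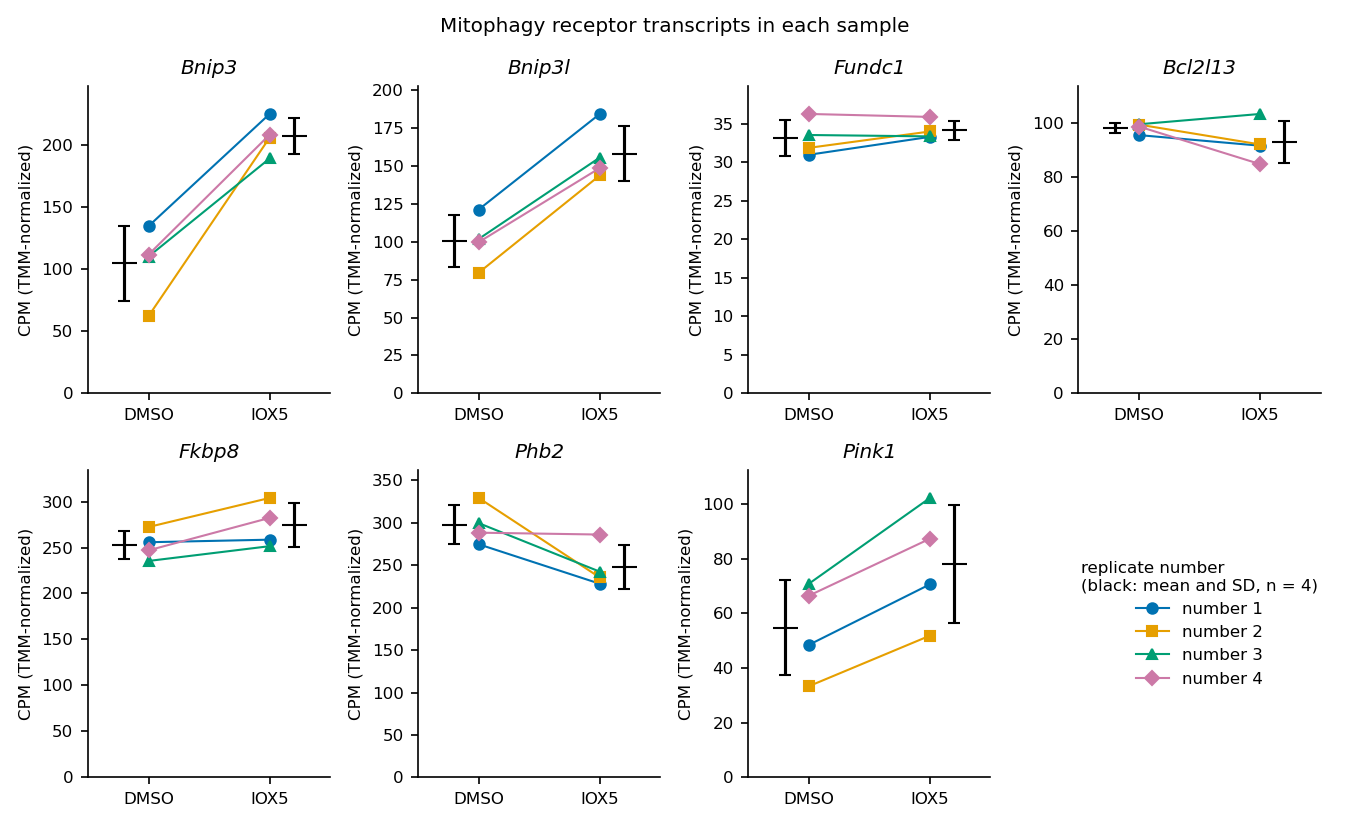
Level of each gene in CPM (vertical axis, from 0) in DMSO and IOX5 samples, with a line joining samples that share a replicate number and black bars for the mean and SD of 4 samples. The IOX5 points of *Bnip3* and *Bnip3l* all lie above their DMSO points, and the 4 lines of *Pink1* all rise, from starting levels between 33.4 and 70.8.

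*Bnip3* was measured at 134.5, 62.1, 110.0 and 111.6 CPM in DMSO replicates 1 to 4 and at 224.6, 205.6, 188.8 and 208.0 CPM in IOX5 replicates 1 to 4. DMSO replicate 2 was the lowest sample, and the 4 IOX5 samples lay close together. The mean rose from 104.5 ± 30.4 CPM (SD, n = 4) to 206.8 ± 14.7 CPM (SD, n = 4), and the coefficient of variation was 29.1% in the DMSO group and 7.08% in the IOX5 group. Counting error alone would give 2.70% in the DMSO group. The log2 fold change was 0.98 with an SE of 0.199 and a 95% interval from 0.53 to 1.43 (edgeR, adjusted p = 0.0469). Within replicate numbers 1 to 4, the log2 difference was 0.74, 1.72, 0.78 and 0.90, so that the pair with the low DMSO sample gave the largest difference. When the replicate number was fitted as a block, the estimate was 1.03 with an SE of 0.125 (edgeR, adjusted p = 2.24e-04). Without the block, the call was lost when any sample other than DMSO replicate 2 was left out (edgeR, adjusted p from 0.0575 to 0.133).

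*Bnip3l* was measured at 121.2, 79.6, 101.8 and 99.7 CPM in DMSO replicates 1 to 4 and at 184.2, 143.7, 155.5 and 148.6 CPM in IOX5 replicates 1 to 4. Replicate 1 was highest and replicate 2 lowest in both groups. From a mean of 100.6 ± 17.02 CPM (SD, n = 4) it rose to 158.0 ± 18.1 CPM (SD, n = 4), and the log2 fold change was 0.65 with an SE of 0.130 and a 95% interval from 0.36 to 0.94 (edgeR, adjusted p = 0.0460). The differences within numbers, 0.60, 0.85, 0.61 and 0.57 on the log2 scale, spread less than those of *Bnip3*. With the block the estimate was 0.66 (edgeR, adjusted p = 8.09e-05). Without the block, the call was lost when any sample other than IOX5 replicate 4 was left out (edgeR, adjusted p from 0.0564 to 0.134). A processed copy on chromosome 12, *Bnip3l-ps*, which could share reads with the gene, held between 25 and 44 reads per sample, or 278 in all 8 against 12904 on *Bnip3l*.

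Markers of other cells were set beside these changes. Among the erythroid markers, *Alas2*, *Slc4a1*, *Epb42* and *Hba-a2* stayed under 1 CPM in every sample. The summed level of 10 erythroid markers, without the transferrin receptor gene *Tfrc*, which dividing cells of many kinds express, ran from 9.18 to 36.3 CPM in the DMSO group and from 16.3 to 57.3 CPM in the IOX5 group, and was higher with IOX5 in 4 of 4 pairs. The 8 macrophage markers summed to between 148.3 and 206.3 CPM with DMSO and to between 226.2 and 501.1 CPM with IOX5. *C1qa* and *Vcam1* stayed under 1 CPM. The lymphoid markers summed to between 9.04 and 21.2 CPM with DMSO and to between 11.1 and 30.9 CPM with IOX5, and the stromal and endothelial markers to between 84.9 and 164.7 CPM and to between 133.0 and 219.8 CPM, both higher in 4 of 4 pairs. None of the macrophage markers was called by edgeR without the block, where 2 had an unadjusted p under 0.05, while 2 were called by DESeq2 and 2, *Adgre1* and *Mrc1*, as higher by edgeR with the block. The neutrophil markers summed to between 783.2 and 1572 CPM with DMSO and to between 1069 and 2343 CPM with IOX5. The mast cell and basophil markers summed to between 126.2 and 486.5 CPM with DMSO and to between 251.7 and 750.3 CPM with IOX5. No marker of any list was called by edgeR without the block. With the block, where 11.2% of all genes were called as higher, the calls among tested markers were 5 of 9 for leukemic progenitors, 3 of 7 erythroid, 1 of 2 lymphoid, 1 of 2 stromal and endothelial, 7 of 8 neutrophil, and 5 of 5 for mast cells and basophils, all as higher. DESeq2 called 1 neutrophil marker and none of the progenitor, erythroid, lymphoid, stromal and mast cell markers. At an unadjusted p under 0.05, edgeR without the block likewise had 1 neutrophil marker and none of those others. The part of these cells in the levels of *Bnip3* and *Bnip3l* was not tested.

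*Fundc1*, *Bcl2l13* and *Fkbp8*, the further receptors of the outer membrane, overlapped between the groups. *Fundc1* was measured at 31.0, 31.9, 33.6 and 36.3 CPM in DMSO replicates 1 to 4 and at 33.3, 34.0, 33.4 and 35.9 CPM in IOX5 replicates 1 to 4, with a higher level in 2 of 4 pairs. Its log2 fold change was 0.042 with a 95% interval from -0.13 to 0.21 (edgeR, adjusted p = 0.796). This interval lies below that of *Bnip3*.

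*Bcl2l13*, whose product carries BCL-2 homology domains, had the smallest spread of the 7 genes in the DMSO group. It was measured at 95.4, 99.2, 99.4 and 98.5 CPM in DMSO replicates 1 to 4, a coefficient of variation of 1.91%, and at 91.5, 91.9, 103.2 and 84.6 CPM in IOX5 replicates 1 to 4. The log2 fold change was -0.080 with a 95% interval from -0.23 to 0.073 (edgeR, adjusted p = 0.549). Its exons share 628 bases with *Bid* on the opposite strand, and *Bid* held 8641 reads in all samples against 9599 on *Bcl2l13*. The strand setting of the counting is not stated. The antisense pair *Xist* and *Tsix* held 105071 against 21 reads. This cannot settle the setting, because counting without regard to strand can leave reads in shared bases unassigned.

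*Fkbp8*, which encodes a membrane-anchored prolyl isomerase, was measured at 255.7, 272.3, 235.4 and 246.9 CPM in DMSO replicates 1 to 4 and at 258.5, 303.9, 251.4 and 282.2 CPM in IOX5 replicates 1 to 4. It was higher with IOX5 in 4 of 4 pairs, by 0.016, 0.16, 0.095 and 0.19 on the log2 scale. The log2 fold change of 0.12 had a 95% interval from -0.056 to 0.29 (edgeR, adjusted p = 0.433, and 0.209 with the block). A difference of the same sign in all 4 pairs was present in 21.3% of all genes as higher and in 19.8% as lower. The gene shares 224 exon bases with *Kxd1* on the opposite strand, which held 3938 reads against 26340 on *Fkbp8*.

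With all samples, *Pink1* and *Phb2* were called by edgeR when the replicate number entered the fit and not without it. *Pink1* was measured at 48.5, 33.4, 70.8 and 66.5 CPM in DMSO replicates 1 to 4 and at 70.6, 51.9, 102.2 and 87.3 CPM in IOX5 replicates 1 to 4. Replicates 1 and 2 were lower than replicates 3 and 4 in both groups, which left the groups overlapping. Of the 9 genes on the progenitor list, 4 (*Kit*, *Mpo*, *Cd34* and *Flt3*) divided the samples in the same way in both groups. Another 4 (*Hoxa10*, *Meis1*, *Itgam* and *Ptprc*) divided them in the opposite way and *Hoxa9* in neither. *Itgam* and *Ptprc* are not particular to progenitors. *Kit*, which encodes the receptor for stem cell factor, was measured at 63.2, 44.0, 94.9 and 96.5 CPM with DMSO and at 82.4, 65.9, 133.2 and 108.4 CPM with IOX5. Without the block the log2 fold change of *Pink1* was 0.51 with a 95% interval from -0.089 to 1.11 (edgeR, adjusted p = 0.321). Within numbers the difference was 0.54, 0.63, 0.53 and 0.39, and the blocked fit gave 0.52 with an SE of 0.0678 and a 95% interval from 0.38 to 0.67 (edgeR, adjusted p = 3.10e-04). This call was kept when any 1 of the 4 numbers was left out (edgeR, adjusted p up to 0.00581).

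*Phb2* was measured at 274.7, 329.2, 299.6 and 288.3 CPM in DMSO replicates 1 to 4 and at 228.2, 235.5, 242.4 and 286.1 CPM in IOX5 replicates 1 to 4. The groups overlapped through IOX5 replicate 4, which lay near its DMSO partner, and DMSO replicate 2, the lowest sample for *Bnip3*, was the highest for *Phb2*. The log2 fold change was -0.26 with a 95% interval from -0.46 to -0.067 (edgeR, adjusted p = 0.143), and the gene was called without the block only when IOX5 replicate 4 was left out (edgeR, -0.34, adjusted p = 0.0454). The estimate became -0.27 with the block (edgeR, adjusted p = 0.0249), with differences of -0.27, -0.48, -0.31 and -0.011 within numbers. The blocked call was lost when number 1, 2 or 3 was left out (edgeR, adjusted p = 0.0845, 0.0620 and 0.131) and kept when number 4 was left out (edgeR, -0.35, adjusted p = 0.00715).

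With the block, 3 members were therefore called as higher and 1 as lower, while 11.2% of all genes were called as higher and 9.43% as lower in that fit. The median log2 fold change over all genes tested was 0.017.

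**Figure D2:**
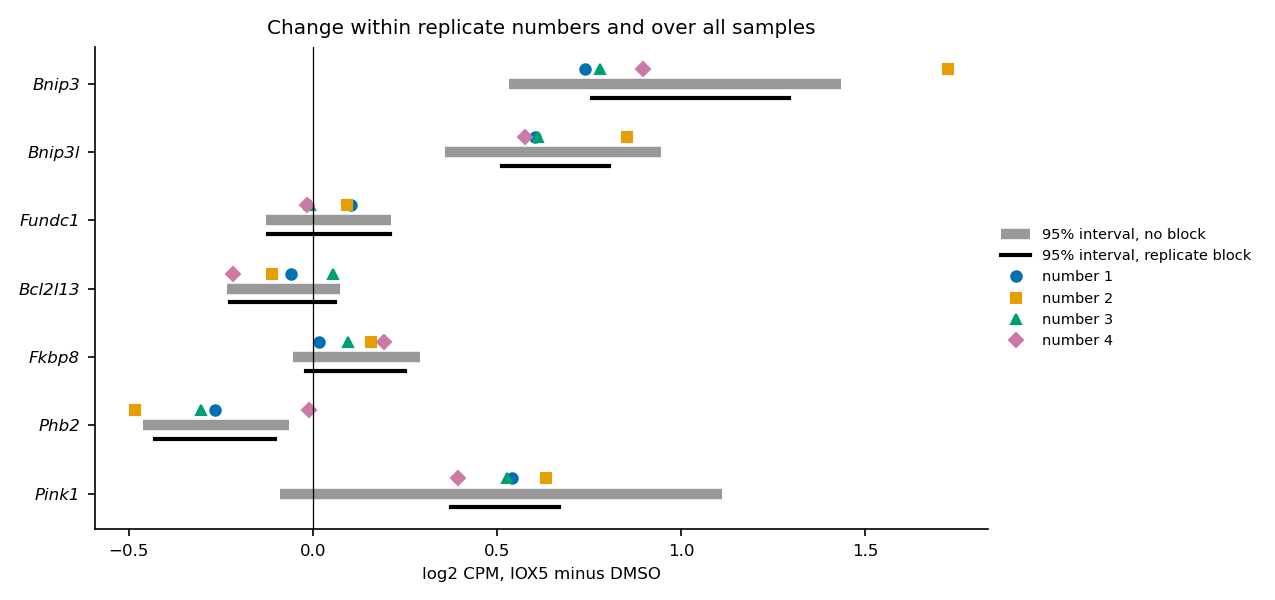
Log2 difference of IOX5 minus DMSO (horizontal axis) for each gene, with coloured symbols for the 4 replicate numbers, grey bars for the 95% interval of the fit without a block and black bars for the interval of the blocked fit. The interval of *Pink1* narrows from between -0.089 and 1.11 to between 0.38 and 0.67, while those of *Fundc1*, *Bcl2l13* and *Fkbp8* span 0 in both fits.

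To compare the genes with one another, CPM was divided by the length of all annotated exons of the gene joined together (CPM per kb). On this scale the level in the DMSO group fell in the order *Phb2* (80.1), *Fkbp8* (55.8), *Bnip3* (46.2), *Bnip3l* (26.1), *Pink1* (20.5), *Fundc1* (14.1) and *Bcl2l13* (10.8). Only *Phb2* from *Fkbp8* and *Fundc1* from *Bcl2l13* were separated beyond the ranges of the 4 samples, and the other neighbors overlapped. In the IOX5 group *Bnip3* came first with 91.3 CPM per kb and did not overlap *Phb2* with 66.7. *Fkbp8* followed with 60.5, *Bnip3l* with 40.9, *Pink1* with 29.2, *Fundc1* with 14.5 and *Bcl2l13* with 10.2. Among these, *Phb2* overlapped *Fkbp8* and *Bnip3l* overlapped *Pink1*. The first place of *Bnip3* depended on the length used. When each gene was divided by its longest coding transcript, *Bnip3* ranked below 2 others in the IOX5 group, with 117.7 CPM per kb, after *Phb2* with 188.2 and *Fkbp8* with 152.3.

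The 7 genes summed to between 233.7 and 262.9 CPM per kb of joined exons in the DMSO samples and to between 302.4 and 326.8 in the IOX5 samples. *Bnip3* and *Bnip3l* made up 34.5%, 20.6%, 28.9% and 29.1% of this sum in DMSO replicates 1 to 4 and between 39.9% and 46.5% in the IOX5 samples. With the longest coding transcript the share ran from 11.8% to 22.1% with DMSO and from 27.1% to 32.9% with IOX5. The groups did not overlap with either length.

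**Figure D3:**
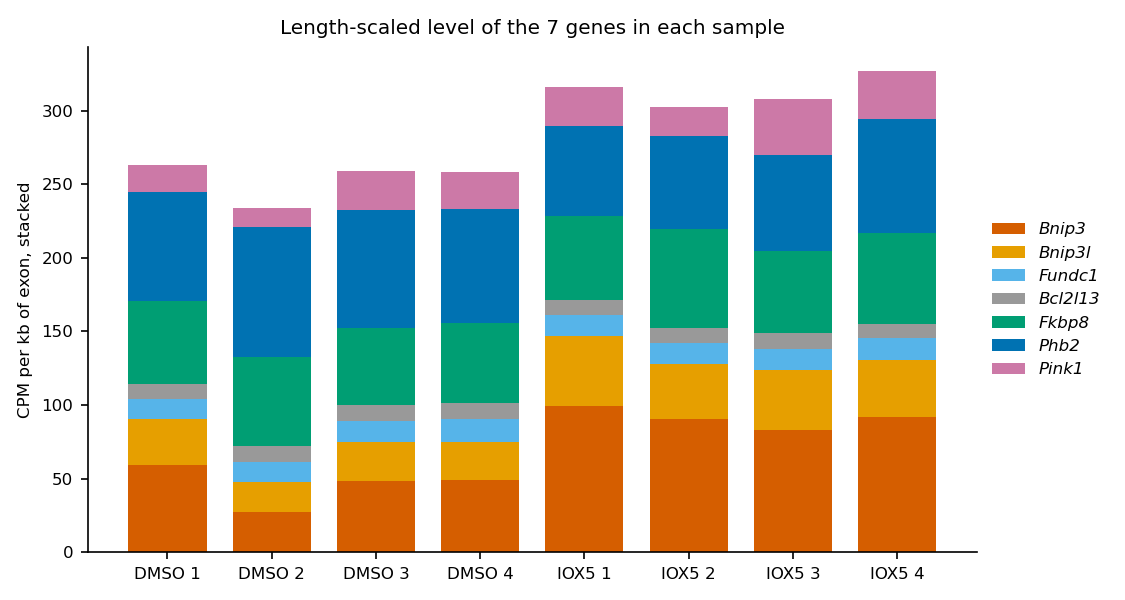
Level of the 7 genes in CPM per kb of joined exons, stacked from 0 for each sample. The sum runs from 233.7 to 262.9 in the DMSO samples and from 302.4 to 326.8 in the IOX5 samples, where *Bnip3* and *Bnip3l* form a larger share.

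Ratios within a sample do not depend on the scaling between samples, and *Bnip3* was compared with each other member in this way by an exact two-sided permutation test over the 70 assignments of samples to groups, for which 0.0286 is the smallest p. The log2 ratio of *Bnip3* to *Bnip3l* was 0.15, -0.36, 0.11 and 0.16 in DMSO replicates 1 to 4 and 0.29, 0.52, 0.28 and 0.48 in IOX5 replicates 1 to 4. The groups did not overlap, and the mean rose by 0.37 (exact permutation p = 0.0286, 0.0343 adjusted over 6 ratios). *Bnip3* thus rose more than *Bnip3l* in 4 of 4 pairs. Leaving out DMSO replicate 2 reduced the change to 0.25, and leaving out IOX5 replicate 2 reduced it to 0.33, each time with a p of 0.0571 (exact permutation). The ratio of *Bnip3* to *Fundc1* rose by 0.99, to *Bcl2l13* by 1.12, to *Fkbp8* by 0.92 and to *Phb2* by 1.30, each with the same p and adjusted p. The p became 0.0571 for *Fundc1* without any 1 of the IOX5 samples, for *Fkbp8* without IOX5 replicate 1 or 3 and for *Phb2* without IOX5 replicate 1 (exact permutation). The ratio to *Pink1* was higher by 0.51 in the IOX5 group (exact permutation p = 0.171). The replicate numbers alone allow no p under 0.125 for such a ratio, by exact sign flips of 4 pairs.

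Other genes of mitophagy were described by lists written from general knowledge of the pathway. The 5 genes of the ATG8 family, which encode the LC3 and GABARAP proteins that the receptors bind, all had estimates above 0, with a median log2 fold change of 0.38 against 0.017 over all genes tested, of which 52.8% had estimates above 0. None was called by edgeR without the block, where 4 had an unadjusted p under 0.05, as did 20.2% of all genes tested. With the block 4 of 5 were called as higher, and DESeq2 called 3. *Gabarap* went from 183.5 ± 5.09 to 239.1 ± 30.0 CPM (SD, n = 4 each; edgeR with the block, adjusted p = 0.00342) and *Gabarapl1* from 85.05 ± 8.56 to 111.9 ± 11.5 CPM (edgeR with the block, adjusted p = 0.00107). *Map1lc3b* was measured between 79.3 and 84.6 CPM with DMSO and between 94.1 and 115.0 CPM with IOX5 (edgeR with the block, adjusted p = 0.0108). *Map1lc3a*, at a much lower level, went from 6.01 ± 0.902 to 8.19 ± 0.572 CPM (edgeR with the block, adjusted p = 0.0339). All 5 genes, including *Gabarapl2*, which was not called, were higher with IOX5 in 4 of 4 pairs, as were 21.3% of all genes.

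The adaptors that link ubiquitin to LC3 were listed together with the kinase gene *Tbk1* and the scaffold gene *Wdfy3*, which are not such adaptors. Of the 8 tested genes of this list, 6 had estimates above 0 and 2 below, with a median of 0.21. *Sqstm1*, which encodes the adaptor p62, was the only one called without the block. It was measured between 232.9 and 270.3 CPM with DMSO and between 314.5 and 361.5 CPM with IOX5, a log2 fold change of 0.44 (edgeR, adjusted p = 0.0254). This call was lost when any 1 of the DMSO samples or IOX5 replicate 3 was left out (edgeR, adjusted p from 0.0686 to 0.0959). With the block *Calcoco1*, *Nbr1* and *Tax1bp1* were also called as higher. *Calcoco1*, which also encodes a receptor for endoplasmic reticulum, had the largest log2 fold change of the list. It was 0.73 without the block (edgeR, adjusted p = 0.0601) and 0.74 with it (edgeR, adjusted p = 9.70e-04). Without the block, the values were 0.32 for *Nbr1* and 0.23 for *Tax1bp1*. *Calcoco2* had 0 of 100522983 reads in the 8 samples, which allows a level of up to 0.0298 CPM (3 reads, counting error only), and was not tested.

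The ubiquitin branch, which PINK1 starts, had 5 tested genes with estimates above 0 and 13 below, with a median of -0.10. None of the 18 tested genes was called by edgeR without the block, where 5 had an unadjusted p under 0.05 against 20.2% of all genes, and DESeq2 called 2. With the block, *Tomm7*, which encodes a subunit of the import pore that holds PINK1 on the outer membrane, was called as higher (log2 fold change 0.30). *Tomm40*, the channel of the same pore, was called as lower (-0.29), as was the segregase gene *Vcp* (-0.21).

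Regulators and partners of the receptors, among them kinases, phosphatases and binding partners, had 11 estimates above 0 and 6 below, with a median of 0.063. None of the 17 was called by edgeR without the block, where 4 had an unadjusted p under 0.05 against 20.2% of all genes, and DESeq2 called 1. With the block, *Bcl2l1* (log2 fold change 0.23) and *Bcl2* (0.50) were called as higher. Both encode anti-apoptotic proteins that bind BNIP3 or BNIP3L, and BCL-XL, the product of *Bcl2l1*, also restrains the dephosphorylation of FUNDC1. *Src*, a kinase that phosphorylates FUNDC1, was called as higher in that fit but stayed between 0.233 and 1.51 CPM. *Csnk2a2*, a catalytic subunit of casein kinase 2, which also phosphorylates FUNDC1, was called as lower (-0.26).

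The prohibitin partners, inner membrane proteases and PINK1-processing enzymes had 1 estimate above 0 and 11 below, with a median of -0.088, and none of the 12 was called by edgeR with or without the block or by DESeq2, with 3 at an unadjusted p under 0.05 in the fit without the block against 20.2% of all genes. The smallest adjusted p without the block belonged to *Pmpca*, a subunit of the matrix processing peptidase (log2 fold change -0.15, edgeR adjusted p = 0.181), and to *Afg3l2*, an inner membrane protease (-0.13, edgeR adjusted p = 0.215). Of the genes that share only the BNIP symbol, *Bnip2* had a log2 fold change of 0.13 and *Bnip1* of -0.079, and neither was called by edgeR in either fit or by DESeq2, or had an unadjusted p under 0.05. *Bnipl* had 19 reads in all and was not tested.

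**Figure D4:**
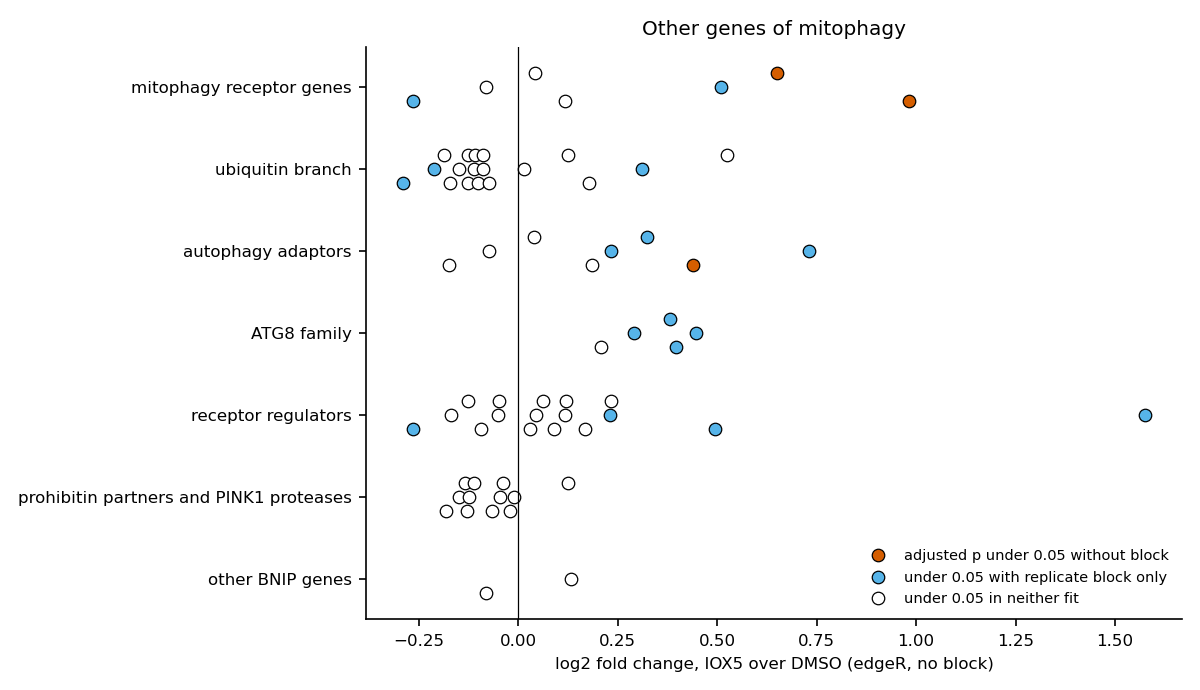
Log2 fold change of IOX5 over DMSO without a block (horizontal axis), 1 point per gene. The row of mitophagy receptor genes holds all 7 genes, *Pink1* included, and the other 6 rows hold lists of related genes. Orange marks genes called without the block, blue those called only with it and white the rest. The 5 ATG8 genes all lie above 0, and 11 of 12 prohibitin partners and PINK1 proteases lie below 0.

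The genes whose profile over the 8 samples was most like that of a member were found by the root-mean-square difference of log2 CPM centered on each gene's own mean, over 11817 genes. Closest to *Bnip3* were the cytokine gene *Il15* (0.122), *Rab17* (0.164), *Gm11110* (0.186), *Gm15590* (0.194) and the cell cycle inhibitor locus *Cdkn2a* (0.198). These were genes of low level, with DMSO means from 1.07 to 5.40 CPM and IOX5 means from 1.99 to 10.8 CPM. *Bnip3l* was 16th in this order with 0.254, and *Pink1* was 650th with 0.451, against a median of 0.632 over all genes. Closest to *Bnip3l* were *Abhd18* (0.0865), *Rin1* (0.0958), *Calcoco1* (0.101), *Pdk1* (0.101) and *Egln1* (0.110), against a median of 0.425, and *Bnip3* was 505th in that order. *Egln1* encodes PHD2, an enzyme that IOX5 inhibits, and *Pdk1* encodes a kinase that holds back pyruvate dehydrogenase, and both are known HIF targets. Closest to *Phb2* were *Pwp1* (0.0295), *Eif4a3* (0.0320), *Mrpl9* (0.0339), *Mcm5* (0.0376) and *Cacybp* (0.0382), against a median of 0.253.

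As a measure of mitochondrial transcripts, the 13 protein genes of the mitochondrial genome took 1.15%, 1.12%, 1.23% and 1.22% of the gene reads in DMSO replicates 1 to 4 and 1.40%, 1.27%, 1.38% and 1.25% in IOX5 replicates 1 to 4. The share was higher in 4 of 4 pairs, with no overlap between the groups, although the highest DMSO and lowest IOX5 samples were close. The means differed by 0.147 percentage points (exact two-sided permutation p = 0.0286). Without DMSO replicate 1, 3 or 4 the p was 0.0571 and without DMSO replicate 2 it was 0.0857 (exact permutation). The libraries were selected for poly(A), and the share counts transcripts, not mitochondria.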

How the data were processed

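RNA-seq counts were analysed for 8 samples, grouped by their labels. The authors prepared strand-specific libraries from poly(A) RNA and sequenced 1 end of each fragment. Reads were trimmed with Cutadapt 1.18 and mapped to GRCm38 with HISAT2 2.2.1, and the deposited values are raw read counts per gene from HTSeq 2.0.1, with 1 table per sample. The annotation release and the strand setting are not given in the sources used here. Summary lines for unassigned reads, 20.6% to 22.6% of the reads, were left out. Of 54838 genes, 54809 were matched by identifier to GENCODE M21.

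IOX5 was compared with DMSO by edgeR 4.0.16 in R 4.3.3 (filterByExpr, TMM factors, quasi-likelihood test, no block, Benjamini-Hochberg adjustment over 12405 genes, threshold 0.05). Log2 CPM values used a prior count of 2. Samples with the same replicate number deviated together from their group means (correlations from 0.636 to 0.758, against -0.615 to 0.685 between different numbers). Numbers 3 and 4 were not clearly told apart. DMSO replicate 4 correlated at 0.685 with IOX5 replicate 3 and at 0.636 with IOX5 replicate 4. DMSO replicate 3 was closer to its own number (0.732 against 0.617). The numbers were taken as pairs, and the blocked fit is given beside the results whose calls it changed. The pairing rests on this check and on the shared numbers, since the labels do not say what the numbers mean. Blocked calls and counts of pairs depend on it. Single values were compared by exact permutation. The other alternatives were DESeq2 1.42.0, RLE and upper-quartile factors, no filter, a prior count of 0.5 for ratios, the reads of *Bnip3l-ps* added to *Bnip3l*, all reads as the denominator of the mitochondrial share, and each sample left out. The blocked fits without 1 number and the longest transcript length were added after seeing the data. The edgeR and DESeq2 fits were tested on simulated counts, drawn without deviations shared between samples of the same number.

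The members and lists were chosen with earlier results of these data known. All 7 members are named, and in each list every gene called in either fit, up to 4, or else the 2 with the smallest adjusted p. The genes named as most like *Bnip3*, *Bnip3l* and *Phb2* are the 5 closest with at least 1 CPM in both group means. Marker genes were named after their values were seen. A few listed genes are not reported here. Promoters came from RefSeq. Intervals and limits cover the error stated with them.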

Additional observations from a re-analysis of the deposited data

Results flagged for a closer look

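Within groups of 4 samples, the gap of the highest or lowest sample to its nearest neighbor was compared with the range of the group. Of 66 groups examined, 5 held a sample that stood apart by Dixon's criterion, and chance flags about 1 in 20. The log2 ratio of *Bnip3* to *Bnip3l* was -0.36 in DMSO replicate 2, where the nearest DMSO sample had 0.11. *Tax1bp1* was at 570.5 CPM in the same sample, with the nearest at 801.5 CPM. In IOX5 replicate 2, *Map1lc3b* was at 115.0 CPM with the nearest at 96.1, and *Gabarapl1* was at 94.8 CPM with the nearest at 115.3. *Tomm40* was at 147.3 CPM in IOX5 replicate 4, with the nearest at 126.9 CPM.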

How the results depend on the processing

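Over 22 results and 294 alternatives, no difference changed direction, 223 values kept their side of the threshold or stayed near the reported value, 27 differences fell short of it, 8 newly passed it and 36 counts moved. With the replicate block, *Phb2* (-0.27) and *Pink1* (0.52) passed the threshold, the calls over all genes rose from 251 to 2564 (1394 higher, 1170 lower) and those over the members from 2 to 4. The block also moved the calls to 3 in the ubiquitin branch and to 4 each among adaptors, ATG8 genes and regulators, and changed no other call among the members. In the blocked fits without number 1, 2, 3 or 4, *Pink1* was at 0.51, 0.49, 0.52 and 0.57, and *Phb2* passed only without number 4, at -0.35. DESeq2 called 977 genes (433 higher, 544 lower), with 2 in the ubiquitin branch, 3 adaptors, 3 ATG8 genes and 1 regulator. Without the filter 152 genes were called (79 higher, 73 lower).

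With 1 sample left out and no block, the log2 fold change ran from 0.80 to 1.13 for *Bnip3*, 0.55 to 0.75 for *Bnip3l*, 0.33 to 0.66 for *Pink1* and -0.34 to -0.21 for *Phb2*, which passed only without IOX5 replicate 4. Calls ran from 0 to 463 over all genes, 0 to 2 over the members and adaptors, and 0 to 1 in the ubiquitin branch, ATG8 genes and regulators. The log2 ratio of *Bnip3* changed by 0.25 to 0.42 against *Bnip3l*, 0.78 to 1.16 against *Fundc1*, 0.88 to 1.27 against *Bcl2l13*, 0.65 to 1.05 against *Fkbp8*, 1.02 to 1.48 against *Phb2* and 0.33 to 0.70 against *Pink1*. The mitochondrial share changed by 0.122 to 0.173 percentage points. The causes were not tested. With 4 samples a group and at least 383 reads per member and sample, the spread between samples exceeded the counting error for every member except *Bcl2l13* with DMSO and *Fundc1* with IOX5.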
